A study of Mus musculus with 4 samples.

Results

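The genes described are 10 genes of chemokine ligands that dendritic cells (DCs) can make: Cxcl1, Cxcl9, Cxcl10, Cxcl16, Ccl3, Ccl4, Ccl5, Ccl9, Ccl17 and Ccl22. They were taken by gene symbol from the array's annotation, which gave 15 probe sets for these 10 genes out of 34945 probe sets for 18193 named genes. Each gene was followed over 4 Affymetrix Mouse Genome 430.2 arrays, 1 array for each of 4 DC subsets sorted from mouse spleen. The subsets were CD8+CX3CR1+, CD8+CX3CR1-, CD4+ and DN cells, the last being the field's usual abbreviation for cells with neither CD4 nor CD8. All 4 came from mice of the strain Cx3cr1gfp/+ C57BL/6, in which a green fluorescent protein gene stands in place of 1 copy of the chemokine receptor gene Cx3cr1, so every subset lacked 1 intact copy of it. The cells had high surface CD11c, and all carried the label of no BMP4 treatment. No source used here gives the age or number of the mice, or says whether they were pooled. Since each subset has 1 array, the spread between samples is unknown, no test was possible and the number of arrays limits the precision. In RNA from a sorted population, fewer cells that express a gene and less RNA of it per cell cannot be told apart.

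Chemokines are small secreted proteins that guide leukocytes through G protein-coupled receptors. They are classed by the spacing of their first cysteines into CC ligands (Ccl genes) and CXC ligands (Cxcl genes). DCs use them to draw T cells, natural killer (NK) cells and monocytes to themselves during priming, and many of the genes are induced by interferons or by NF-kB. In the spleen, CD8+ DCs are known for cross-presentation of antigen to CD8 T cells and CD4+ DCs for presentation to CD4 T cells.

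Values are MAS5 signals, the array software's linear measure of brightness for a probe set. A floor of 55.7 was taken from genes of smell, taste and hair that have no known role in spleen cells, and a gene was called detected if it exceeded the floor on at least 1 array. A difference of 4-fold or more (2 on the log2 scale) was counted, and where 1 of the arrays lay under the floor the fold is a lower bound. The sort markers Cd8a, Cx3cr1 and Cd4 went with the sample titles, from which the groups were taken, although the labels' field for the type of DC goes against the title on the CD8+CX3CR1- and DN arrays. All 8 general DC markers on the platform, among them Itgax, Flt3 and Zbtb46, lay above the floor on all 4 arrays. On 3 arrays 41.0% to 42.5% of probe sets exceeded the floor, and on the CD4+ array 47.6% did. The CD4+ array had the highest ratio between the Gapdh control probe sets at opposite ends of the transcript too (11.8, with 7.56 to 8.98 on the others), which goes up as RNA degrades. The signal at the 3′ end exceeded that at the 5′ end on all 4 arrays, so this bias was not confined to the CD4+ array.

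Cxcl9, Cxcl16 and Ccl22 had their highest signal on the CD8+CX3CR1- array. Ccl9, Ccl4 and Ccl5 had their lowest signal there, and Ccl3 lay under the floor on both CD8+ arrays. The range of Cxcl10 was close to the median of all genes, the probe sets of Cxcl1 disagreed, and Ccl17 was under the floor on all 4 arrays. Ccl3, Ccl4 and Ccl5 were lower on both CD8+ arrays than on CD4+ and DN. For Cxcl9, Cxcl16, Ccl22 and Ccl9 the CD8+CX3CR1+ array did not share the pattern of the CD8+CX3CR1- array. Its Cxcl9, Ccl9, Ccl22 and Cxcl10 signals, raised to the floor where they lay under it, were within 1.58-fold of those on the CD4+ and DN arrays, while its Cxcl16 signal was the lowest of the 4. Of the 10 genes, 9 were detected, and 5 of these lay above the floor on fewer than 4 arrays, so that they were kept through the arrays on which they were bright.

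The markers of DC subsets moved with the split between the CD8+ arrays. Of 12 detected CD8 DC markers, 8 were at least 4-fold lower on CD8+CX3CR1+ than on CD8+CX3CR1-, with a median log2 difference of -3.25. Of 11 detected markers of CD4 and CD11b DCs, 8 were at least 4-fold higher there, with a median of 3.80, and over all detected genes the share past 4-fold was 2.82% and the median 0. Cd8a read 2530.2, 4742, 18.7 and 129.5 on the CD8+CX3CR1+, CD8+CX3CR1-, CD4+ and DN arrays, Rab7b 82.9, 3191, 28.8 and 415, Naaa 772, 7459.6, 228 and 1985, and the scavenger receptor gene Cd36 57.8, 1454, 31.7 and 165. Each of these was highest on CD8+CX3CR1-, though Cd8a was not among the 8 past 4-fold between the CD8+ arrays. Batf3 (1028, 2570, 2678 and 1668) and Ly75 (25.7, 136, 141 and 61.2) were instead highest on CD4+. S100a4 read 8947, 34.0, 7229.6 and 7578 in the same order, Dtx1 776, 49.9, 2895 and 3111, Csf1r, the receptor gene for colony-stimulating factor 1, 11291, 498, 13894 and 9142, and Clec4a2 498, 8.2, 1119 and 1175. All 4 were lowest on CD8+CX3CR1-. Of 9 detected ligands 3 passed 4-fold between the CD8+ arrays. Cxcl9 and Cxcl16 were lower on CD8+CX3CR1+, and Ccl9 was higher there by its brighter probe set. The other ligands did not show a split of this size. The part of the subset make-up of the sorted cells in the ligand signals was not tested.

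**Figure D1:**
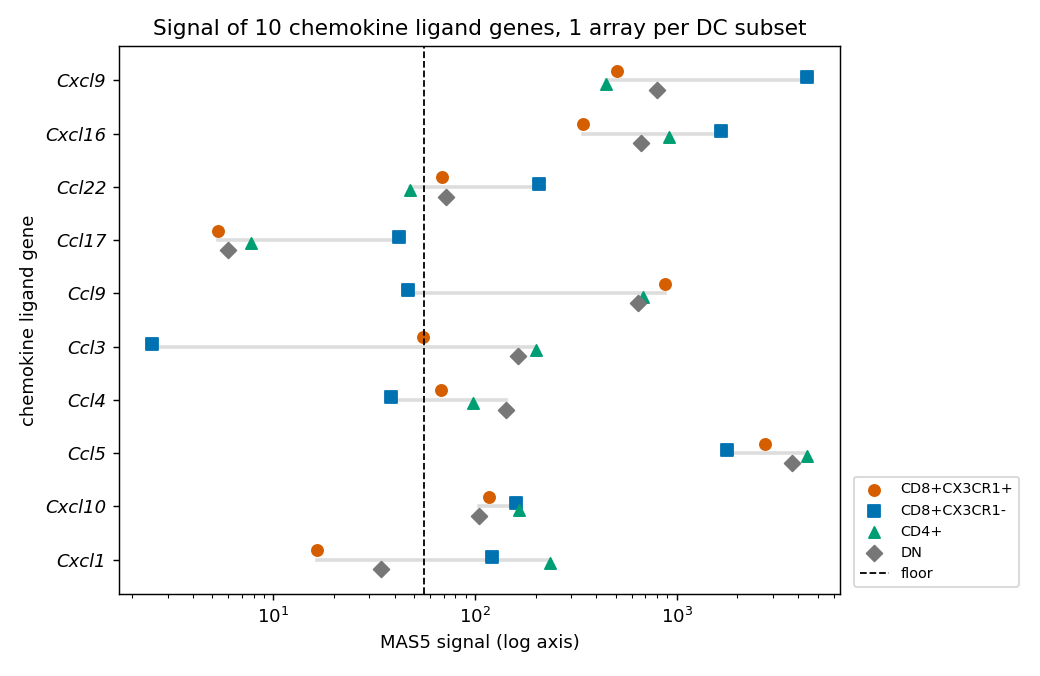
MAS5 signal (log axis) of the probe set that represents each of the 10 ligand genes, with 1 point per array and a dashed line at the floor of 55.7. Cxcl9, Cxcl16 and Ccl22 have the CD8+CX3CR1- array on the right, and Ccl9, Ccl3, Ccl4 and Ccl5 have it on the left.

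Cxcl9 and Cxcl10 encode ligands of CXCR3, the receptor that brings activated T cells and NK cells to sites of interferon-gamma production. The signal of Cxcl9 was 506 on CD8+CX3CR1+, 4429.6 on CD8+CX3CR1-, 447 on CD4+ and 800.4 on DN. The CD8+CX3CR1- array thus stood above the other 3, by 8.75-fold over CD8+CX3CR1+, 9.91-fold over CD4+ and 5.53-fold over DN. Among the other 3, CD8+CX3CR1+ and CD4+ differed by 0.18 on the log2 scale, less than the median standard deviation of 0.35 between probe sets of 1 gene in that pair of arrays. The second probe set of Cxcl9 read 197, 682, 203 and 123 in the same order of arrays and was again highest on CD8+CX3CR1-. It put DN lowest rather than second, so the place of the DN array among the lower 3 was not settled. With this dimmer probe set, the log2 difference of CD8+CX3CR1- was 1.80 over CD8+CX3CR1+ and 1.75 over CD4+, under 4-fold in both.

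Cxcl10 did not follow Cxcl9. Its signal was 118 on CD8+CX3CR1+, 160.1 on CD8+CX3CR1-, 165 on CD4+ and 105 on DN, a range of 1.57-fold, and 46.6% of detected genes had a smaller one. The CD8+CX3CR1- and CD4+ arrays differed by 0.04 on the log2 scale, and the order of these arrays turned under either other scaling. Both genes lie on chromosome 5, with Art3 as the sole coding gene between them in the RefSeq order. Cxcl11, known as the third CXCR3 ligand gene, was not among the coding genes of that order. It read 28.1 on CD8+CX3CR1+, 79.1 on CD8+CX3CR1-, 53.6 on CD4+ and 44.0 on DN, above the floor on the CD8+CX3CR1- array alone.

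The RefSeq sequences upstream of Cxcl9 and Cxcl10 are shown because the genes lie close together and differed in their signals. That of Ccl9 is given beside them as a member lowest where Cxcl9 was highest. RefSeq promoter entries (GRCm38.p6) matched 7 of the 10 genes, and the 250 bases before the start of the gene are given, 5′ to 3′ on the gene's strand. Capitals mark matches on either strand to 5 short patterns chosen with the values known. These were the kappaB pattern GGGNNNTTC, the interferon-stimulated response element (ISRE) pattern GAAANNGAA, the Ets-IRF composite element (EICE) pattern GGAANNGAA, which can overlap the ISRE pattern, the gamma-activated sequence (GAS) TTCNNNGAA and the AP-1 pattern TGANTCA. The Cxcl9 window is chr5:92328080-92328329, the Cxcl10 window chr5:92348890-92349139 and the Ccl9 window chr11:83578637-83578886, all on the minus strand.
Cxcl9: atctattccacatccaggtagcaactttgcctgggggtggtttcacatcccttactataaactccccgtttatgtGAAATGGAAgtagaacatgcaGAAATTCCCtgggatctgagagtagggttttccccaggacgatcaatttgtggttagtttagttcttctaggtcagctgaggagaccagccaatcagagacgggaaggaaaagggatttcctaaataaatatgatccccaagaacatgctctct
Cxcl10: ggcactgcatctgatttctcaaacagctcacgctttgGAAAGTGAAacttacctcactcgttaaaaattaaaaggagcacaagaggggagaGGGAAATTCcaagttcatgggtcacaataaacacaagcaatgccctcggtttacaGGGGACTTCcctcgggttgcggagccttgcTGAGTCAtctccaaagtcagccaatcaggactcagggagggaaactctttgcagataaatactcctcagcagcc
Ccl9: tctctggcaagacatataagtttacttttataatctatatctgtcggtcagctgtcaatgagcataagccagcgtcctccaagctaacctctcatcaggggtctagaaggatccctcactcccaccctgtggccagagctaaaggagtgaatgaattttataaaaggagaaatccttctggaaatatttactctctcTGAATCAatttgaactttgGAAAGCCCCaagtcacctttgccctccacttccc
The Cxcl9 window held 1 kappaB and 1 ISRE match, the Cxcl10 window 2 kappaB matches, 1 ISRE and 1 AP-1 match, and the Ccl9 window 1 kappaB and 1 AP-1 match. Of 32851 RefSeq promoter windows of the same length, 11.8% held the kappaB pattern, 7.13% the ISRE, 6.99% the EICE, 7.02% the GAS and 6.75% the AP-1 pattern. Among the other members with an entry, Cxcl1 held 3 kappaB matches, of which the last 2 overlap, Ccl3 held 1 ISRE match, Ccl17 held 1 GAS match, and Ccl22 held none. A match is a description of letters and shows no binding.

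The genes through which interferons induce Cxcl9 and Cxcl10 were about as uneven over the arrays as genes in general. The 9 detected genes of that list had ranges of 1.20-fold to 2.26-fold with a median of 1.66-fold, beside a median of 1.61-fold over all detected genes. A range of 4-fold was reached by 0 of the 9 and by 4.66% of all detected genes, so the count does not set the list apart. The receptor gene Ifngr1 read 1097, 2476, 2184 and 1429.7 on the CD8+CX3CR1+, CD8+CX3CR1-, CD4+ and DN arrays. The transcription factor gene Irf1 read 813, 1194, 1779 and 1585 in the same order. Ifng itself lay under the floor on all 4 arrays. Cxcr3, the receptor gene of these ligands, was 122 on CD8+CX3CR1+, 1819 on CD8+CX3CR1-, 229 on CD4+ and 311 on DN, and so was highest on the array with the highest Cxcl9 signal.

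Cxcl16 encodes a chemokine made as a membrane protein, which is shed by the metalloproteases ADAM10 and ADAM17 and binds CXCR6 on T cells and natural killer T cells. Its signal was 344 on CD8+CX3CR1+, 1665 on CD8+CX3CR1-, 915 on CD4+ and 669 on DN. The CD8+ arrays were the extremes, 4.84-fold apart, with CD4+ and DN between them. Neighbours in this order differed by 0.45 to 0.96 on the log2 scale as deposited, more than the median standard deviation between probe sets in each pair of arrays. After scaling to an equal median, CD4+ (779) and DN (692) kept their order but lay closer together, so the size of this gap depends on the scaling. The second probe set read 234, 1340.1, 750.3 and 342 and gave the same order of the 4 arrays. The difference between the CD8+ arrays stayed past 4-fold under all 9 alternatives to the processing, at a log2 difference of 2.24 to 2.52. Adam17 read 1211 to 1450.3 and Adam10 181 to 304 over the arrays. Cxcr6 was under the floor on all 4.

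Ccl22 and Ccl17 encode ligands of CCR4, through which DCs attract regulatory and other helper T cells. Both are typical of mature DCs. Ccl22 read 68.4 on CD8+CX3CR1+, 207 on CD8+CX3CR1-, 47.5 on CD4+ and 71.6 on DN. The CD8+CX3CR1- array was the high one, 3.03-fold over CD8+CX3CR1+, 2.90-fold over DN and at least 3.72-fold over CD4+. The former pair of folds is under 4-fold and the last is a bound set by the floor, which reads 2.13 on the log2 scale without a floor. The other 3 arrays lay near the floor and were not separated, with CD8+CX3CR1+ and DN 0.07 apart on the log2 scale. Ccl17 read 5.3, 41.8, 7.8 and 6.0 on the CD8+CX3CR1+, CD8+CX3CR1-, CD4+ and DN arrays. All of these values were under the floor, so they have no order. The pair lies on chromosome 8 on either side of Cx3cl1, the gene of the ligand of CX3CR1, which was itself under the floor on all 4 arrays. Ccr4 was as well.

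Genes of mature DCs were set beside Cxcl9, Cxcl16 and Ccl22. All 13 on the platform were detected, and they did not move together. Their summed signal was 15862 on CD8+CX3CR1+, 19404 on CD8+CX3CR1-, 17154 on CD4+ and 16381 on DN, with Cd83 (4563, 9599, 8768.5 and 7546) as the brightest gene on all but the CD8+CX3CR1+ array. Gene by gene, the median log2 difference of CD8+CX3CR1- was -0.05 against DN and 0.14 against CD4+. That of CD8+CX3CR1+ against CD8+CX3CR1- was -0.52, and 2 of the 13 passed 4-fold there, beside 2.82% of all detected genes. Cd86, a ligand of the costimulatory receptor CD28, read 312, 3099, 812 and 1071 in this order, and Tnfrsf4, which encodes OX40, 34.5, 228, 199.5 and 66.3. Both were highest on CD8+CX3CR1-, with the 3 ligands. Cd40, the receptor through which helper T cells license DCs, was instead lowest there (885, 475, 1162 and 786.5), as were Birc2 (717, 417, 989 and 833) and Marcksl1 (1589, 489, 628 and 758.5). Fscn1, an actin-bundling protein gene of mature DCs, was highest on CD8+CX3CR1+ (6879 against 3160 to 3571 on the others), and Ccr7, which leads mature DCs to lymph nodes, was 360 there and 845 to 1015 elsewhere. The part of maturation in the ligand signals was not tested.

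Ccl9, Ccl3, Ccl4 and Ccl5 encode CC ligands that attract monocytes and effector T cells, and Ccl9, Ccl3 and Ccl5 act on the receptor CCR1. The signal of Ccl9 was 874 on CD8+CX3CR1+, 46.4 on CD8+CX3CR1-, 678 on CD4+ and 641 on DN. The CD8+CX3CR1- array lay under the floor and the other 3 far above it. Ccl9 was at least 15.7-fold lower on CD8+CX3CR1- than on CD8+CX3CR1+, at least 12.2-fold lower than on CD4+ and at least 11.5-fold lower than on DN. The CD4+ and DN arrays differed by 0.08 on the log2 scale, a difference that changed sign when the arrays were scaled to an equal median.

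These Ccl9 values rest on 1 of its 2 probe sets. The dimmer one read 20.5 on CD8+CX3CR1+, 31.6 on CD8+CX3CR1-, 90.1 on CD4+ and 39.7 on DN, above the floor on the CD4+ array alone. It does not show the high signal on CD8+CX3CR1+ and DN, and with the probe sets averaged the log2 difference between the CD8+ arrays was at least 1.26.

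**Figure D2:**
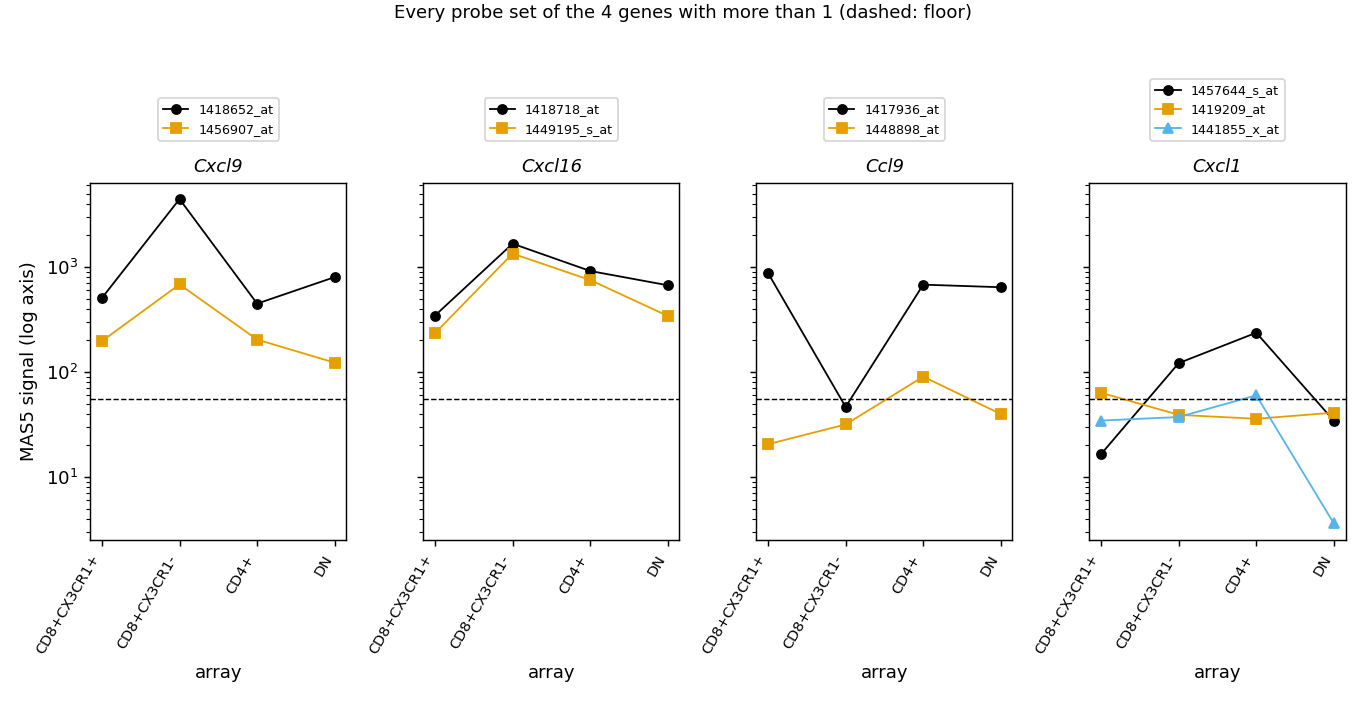
MAS5 signal (log axis) of every probe set of Cxcl9, Cxcl16, Ccl9 and Cxcl1 on the 4 arrays, with a line joining the values of 1 probe set and a dashed line at the floor of 55.7. The probe sets of Cxcl9 and Cxcl16 both peak on CD8+CX3CR1-, while those of Ccl9 and Cxcl1 do not run together.

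Ccl5, which encodes RANTES, read 2733 on CD8+CX3CR1+, 1782 on CD8+CX3CR1-, 4428 on CD4+ and 3752 on DN. It was well above the floor on all 4 arrays and 2.49-fold apart between the extremes. The CD4+ array was above the DN array by 0.24 on the log2 scale, less than the median standard deviation of 0.36 between probe sets in that pair, and scaling to an equal median reversed their order. The CD8+CX3CR1- array was lowest, by 1.53-fold under CD8+CX3CR1+.

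Ccl3 and Ccl4 encode the inflammatory proteins MIP-1alpha and MIP-1beta, and their genes stand next to each other on chromosome 11. Ccl3 read 55.6, just under the floor, on CD8+CX3CR1+, 2.5 on CD8+CX3CR1-, 200.3 on CD4+ and 163 on DN. The CD8+CX3CR1+ value was above the 46.0 that the same percentile gave on that array alone. Ccl3 was thus clearly detected on the CD4+ and DN arrays only, with a difference over either CD8+ array of at least 3.60-fold for CD4+ and at least 2.93-fold for DN. Ccl4 read 68.0 on CD8+CX3CR1+, 38.3 on CD8+CX3CR1-, 97.6 on CD4+ and 142 on DN, again with both CD8+ arrays the lower ones. The folds against values under the floor are bounds, and with this floor no pair of arrays was counted as 4-fold apart for either gene. Values this near the floor carry little weight.

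In RefSeq order Ccl5, Ccl9, Ccl6, Ccl3 and Ccl4 follow each other on chromosome 11 with no other coding gene between them. Ccl6, a further CCR1 ligand gene, read 217 on CD8+CX3CR1+, 286 on CD8+CX3CR1-, 390 on CD4+ and 429 on DN. It was detected on all 4 arrays, without the low value on CD8+CX3CR1- that the genes on either side of it had. Ccl9 therefore ranged over at least 15.7-fold and its direct neighbours Ccl5 and Ccl6 over 2.49-fold and 1.98-fold. Ccr1, the receptor gene, was above the floor on CD8+CX3CR1+ alone, at 274.

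NK and T cells also make Ccl3, Ccl4 and Ccl5, so their markers are given beside these results. Of 10 NK markers on the platform 7 were detected. The summed signal of the 10 was 4386, 763, 2254 and 3360 on the CD8+CX3CR1+, CD8+CX3CR1-, CD4+ and DN arrays, lowest where Ccl4 and Ccl5 were lowest. Most of it was Klrd1 (3723, 167, 1886 and 2628), and 1 other marker had a 4-fold range, Klrk1 (240.1, 340.0, 76.5 and 305), which was highest on CD8+CX3CR1-. These were 2 of the 7 detected markers, beside 4.66% of all detected genes. The transcription factor gene Eomes read 76.7, 22.9, 91.4 and 108. Gzma, Nkg7, Klre1 and Prf1 exceeded the floor on 1 or 2 arrays, at up to 115, while the defining NK genes Ncr1, Gzmb and Il2rb were under it on all 4. Of 9 T cell markers 6 were detected, with summed signals of 427, 239, 504 and 308.5. Cd5 read 117, 45.4, 171 and 128, and Cd3e lay just above the floor on CD8+CX3CR1+ (65.8) and DN (66.8). Themis reached 104 on CD4+, and Bcl11b, Cd3d and Cd6 did not exceed 67.8 on any array. Cd3g, Cd247 and Cd28 were under the floor throughout. The part of NK and T cells in the signals of Ccl3, Ccl4 and Ccl5 was not tested.

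Monocytes and macrophages make Ccl9. All 12 red pulp macrophage markers were detected, with sums of 2823, 1093, 4433 and 2293 in the same order of arrays, lowest where Ccl9 was lowest. A range of 4-fold was found for 3 of them, beside 4.66% of all detected genes, and the 3 did not run together. C1qb read 742, 60, 358 and 70.2, and Adgre1, which encodes F4/80, 579, 143, 3068 and 1692. Vcam1, an adhesion molecule gene, read 291, 513, 142 and 109, and Hmox1, the gene of the haem-degrading oxygenase, 47.4, 71.6, 4.8 and 3.0, so that both were highest on CD8+CX3CR1-. Of 9 monocyte markers 7 were detected, with sums of 6684, 5574, 10407 and 6523. A 4-fold range was found for 5 of the 7, in both directions, beside 4.66% of all detected genes. Ms4a6c read 3476, 388, 2154 and 2150.2, low on CD8+CX3CR1- as Ccl9 was. Treml4 (196, 2124, 399 and 456) and the endotoxin co-receptor gene Cd14 (449, 1089, 197 and 395) were highest there. Ccr2, a chemokine receptor gene of monocytes, read 705, 225, 143 and 539.6, and the lysozyme gene Lyz2 1736, 1652, 7284 and 2834. F13a1 and Vcan were under the floor on all 4. The part of macrophages and monocytes in the Ccl9 signal was not tested.

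Other cells were sparse or uneven in their markers. Of 10 markers of stroma and endothelium 7 were detected, with sums of 259 to 970, the highest through Kdr on CD8+CX3CR1+ (717), and Col3a1 and Pdgfrb were under the floor throughout. Of 7 platelet and erythroid markers 3 were detected (sums of 232 to 329). Of 9 B cell markers 7 were detected (sums of 619 to 1218), with Cd79a under the floor on all 4, while Cd79b read 593, 3.1, 402 and 178 on the CD8+CX3CR1+, CD8+CX3CR1-, CD4+ and DN arrays. Ms4a1 went the other way, at 361, 446, 202 and 162.5, above the floor on all 4 and highest on CD8+CX3CR1-. Of 9 plasmacytoid DC markers 8 were detected, and their sum was highest on CD8+CX3CR1+, at 7922, and 1007, 1656 and 2759.8 on CD8+CX3CR1-, CD4+ and DN. Klra17 read 1519, 52.1, 156 and 311 in this order, Spib 1556.5, 60.3, 577 and 704.5, Tcf4 3489, 269.5, 470.0 and 1135, and Bst2 659.5, 235.5, 89.8 and 232. All 4 were highest on CD8+CX3CR1+, as were Siglech and Ccr9. Cox6a2 (91.3, 69.4, 161 and 79.8) and Pacsin1 (18.5, 23.3, 86.0 and 40.2) were instead highest on CD4+. By its brighter probe set Ccl9 was 1.29-fold higher on CD8+CX3CR1+ than on CD4+, and its dimmer one exceeded the floor on CD4+ alone. The part of plasmacytoid DCs in the Ccl9 signal was not tested.

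Cxcl1 encodes a ligand of CXCR2 that attracts neutrophils. Its brightest probe set, which ends in _s and can match more than 1 transcript, read 16.5 on CD8+CX3CR1+, 121 on CD8+CX3CR1-, 236 on CD4+ and 34.3 on DN. By this probe set Cxcl1 was above the floor on CD8+CX3CR1- and CD4+, and CD4+ was at least 4.24-fold higher than CD8+CX3CR1+ and DN. The other probe sets did not show this. The probe set without a suffix read 63.3, 39.0, 35.8 and 40.9, and the _x probe set 34.4, 37.2, 59.9 and 3.6 in the same order. Without _x, _s and _a probe sets, the log2 difference of CD8+CX3CR1+ from CD4+ turned from -2.08 to 0.18. The CD4+ array is also the one with the highest Gapdh ratio and the highest share of probe sets above the floor, and the part of RNA integrity in this value was not tested. Cxcr2 lay under the floor on 3 arrays and at 56.1 on CD8+CX3CR1-. Of 8 neutrophil markers 4 were detected, with a summed signal of 207 to 349 and S100a9, Camp, Mpo and Elane under the floor on all 4. Immediate early and stress genes, which tissue digestion can induce, had summed signals of 13063 on CD8+CX3CR1+, 20767 on CD8+CX3CR1-, 15632 on CD4+ and 23281 on DN. Of 18 such genes 1 had a 4-fold range, Jun, at 327, 75.8, 196 and 288. Of all detected genes 4.66% had one, so the count does not set the list apart. The part of these 18 genes in the Cxcl1 signal was not tested.

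Counted over pairs of arrays, most of the differences past 4-fold involved CD8+CX3CR1-. Between CD8+CX3CR1+ and CD8+CX3CR1-, Ccl9 was higher and Cxcl9 and Cxcl16 were lower on the former, 3 of 9 detected members where 2.82% of all detected genes passed. Between CD8+CX3CR1- and CD4+, Cxcl9 was higher and Ccl9 lower, 2 of 9 against 2.98% of all genes. The same genes passed between CD8+CX3CR1- and DN, 2 of 9 against 2.02%. Cxcl1 alone passed between CD8+CX3CR1+ and CD4+ (0.769% of all genes) and between CD4+ and DN (0.254%), through the probe set described above. Between CD8+CX3CR1+ and DN, 0 of 9 passed, where 0.412% of all genes did. The 3 comparisons with CD8+CX3CR1- share that array, so their values are not independent of each other.

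At 2-fold, 8 of 9 detected members separated CD8+CX3CR1- from DN, with Cxcl9, Cxcl16, Ccl22 and Cxcl1 higher and Ccl9, Ccl3, Ccl4 and Ccl5 lower, and 10.9% of all detected genes passed. The median log2 difference of the members in this pair was 0.61, against 0 over all genes, and the opposite movements make it a poor summary. The medians were -0.45 for CD8+CX3CR1+ against CD8+CX3CR1-, -0.52 against CD4+ and -0.46 against DN, each beside 0 over all genes. They were -0.81 for CD8+CX3CR1- against CD4+ (-0.01 over all genes) and 0.24 for CD4+ against DN (0.01).

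Scaling to an equal median shifted the median log2 difference of all genes by 0.18 for CD8+CX3CR1+ against CD4+, 0.16 for CD8+CX3CR1- against CD4+ and -0.13 for CD4+ against DN, and changed how the 4-fold calls divided over all genes. CD8+CX3CR1+ against CD4+ had 50 higher and 47 lower genes as deposited and 90 and 21 after this scaling. CD8+CX3CR1- against CD4+ had 149 and 227, then 236 and 158, and CD4+ against DN 9 and 23, then 5 and 35. Among the members, signs changed only for Cxcl10 between CD8+CX3CR1- and CD4+ and for Ccl5 and Ccl9 between CD4+ and DN, over the 2 other scalings tried.

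**Figure D3:**
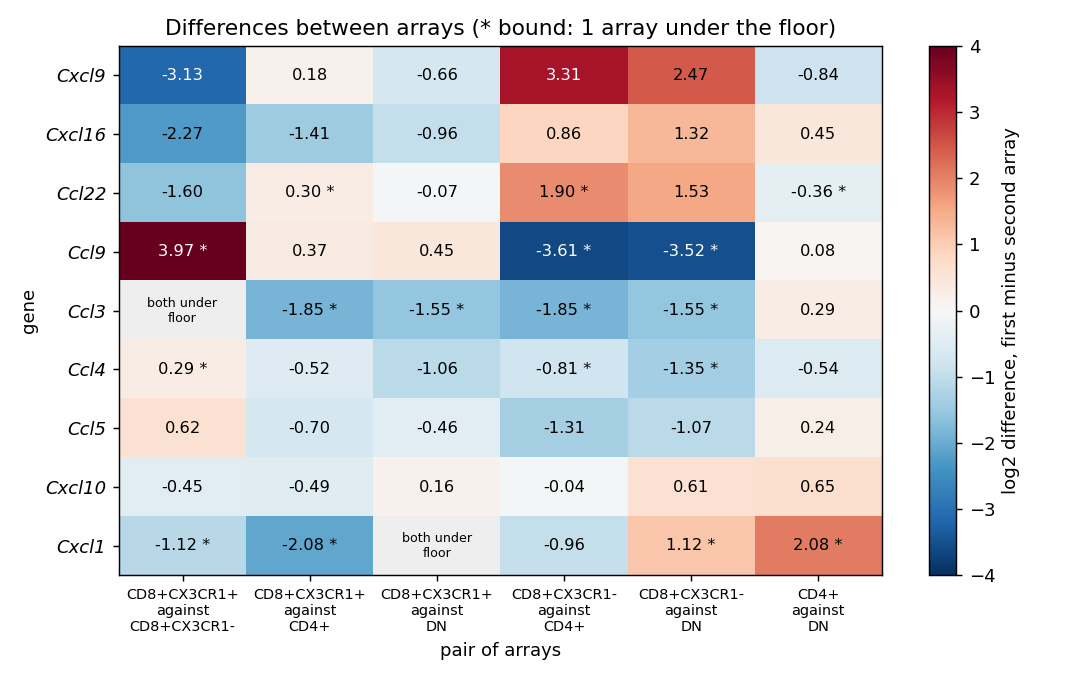
Log2 difference (first minus second array, colour scale and printed value) of the 9 detected ligand genes in the 6 pairs of arrays, where a star marks a bound because 1 array lay under the floor. The strongest colours stand in the 3 pairs with CD8+CX3CR1-, at -3.13 to 3.31 for Cxcl9 and -3.61 to 3.97 for Ccl9.

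Over the 4 arrays, Ccl9 (at least 15.7-fold), Cxcl9 (9.91-fold), Cxcl16 (4.84-fold) and Cxcl1 (at least 4.24-fold) had a range past 4-fold, as had 4.66% of all detected genes. Ccl22 (at least 3.72-fold) and Ccl3 (at least 3.60-fold) were next and were not counted, but both values are bounds. A lower floor, at the 75th percentile of the background probe sets, gave log2 ranges of 2.13 and 2.50, past 4-fold. The ranges of Ccl4 and Ccl5 were at least 2.55-fold and 2.49-fold, and the median range over all detected genes was 1.61-fold.

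**Figure D4:**
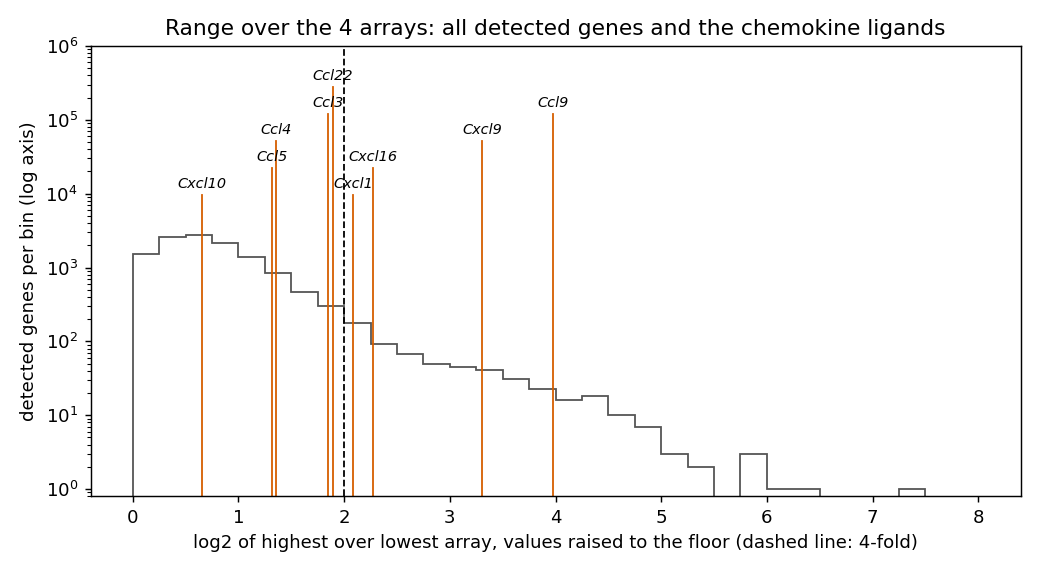
Number of detected genes (log axis) by the log2 ratio of their highest to their lowest array, after values were raised to the floor, with the 9 detected ligand genes as vertical lines and a dashed line at 4-fold. Cxcl10 lies at 0.65 in the bulk of the genes, and Ccl9 at 3.97 and Cxcl9 at 3.31 lie in the upper tail.

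Of 25 other chemokine ligand genes on the platform, 9 were detected. A range of 4-fold was reached by 0 of these 9, where 4.66% of all detected genes reached it, so the count does not set them apart. Their median range was 1.74-fold, beside 1.61-fold over all detected genes. The widest were those of Cxcl2 (at least 2.21-fold), Cxcl14 (at least 2.10-fold), Pf4 (at least 1.98-fold) and Ccl6 (1.98-fold). Cxcl2, a CXCR2 ligand gene like Cxcl1, read 83.3 on CD8+CX3CR1+, 123 on CD8+CX3CR1-, 70.6 on CD4+ and 27.0 on DN. Among the 16 under the floor on all arrays were Ccl2, Ccl7 and Ccl12, whose products attract monocytes, Cxcl12 and Cxcl13, which lay out the zones of lymphoid tissue, and Xcl1, the ligand of the CD8 DC receptor XCR1.

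Of 9 genes of receptors for the members on the platform, 6 were detected and 3 had a 4-fold range, beside 4.66% of all detected genes. Besides Cxcr3 and Ccr1 this was Ackr1, a decoy receptor that binds several of these ligands, at 155, 48.4, 253 and 191 on the CD8+CX3CR1+, CD8+CX3CR1-, CD4+ and DN arrays. In the processing of chemokines 1 of 8 detected genes had such a range and on the NF-kB path 1 of 12, counts too small to set either list apart from that share. The NF-kB list had a median log2 difference of 0.47 for CD8+CX3CR1+ against CD8+CX3CR1-. For CD8+CX3CR1- it was -0.69 against CD4+ and -0.58 against DN. In these pairs the medians were 0.14, -0.66 and -0.67 for chemokine processing, and 0, -0.01 and 0 over all genes. The part of either list in the ligand signals was not tested. The metalloprotease gene Mmp12 read 73.8, 2.3, 781 and 275. The peptidase gene Dpp4, whose product trims Cxcl9, Cxcl10, Ccl5 and Ccl22, was level at 3205 to 3624. The NF-kB gene with a 4-fold range was Relb. It read 2265, 631, 3119 and 1782, lowest on CD8+CX3CR1-, as were Ccl9 and Ccl5.

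For the members with a range of 4-fold or more, the named genes with the most similar profile were found by the root mean square difference of centred log2 signals over the 4 arrays, among 11816 detected genes. Nearest to Cxcl9 were Snx24 (0.11), Cystm1 (0.13) and the lysosomal glucuronidase gene Gusb (0.16), the last at 623, 6165, 476 and 1103 on the CD8+CX3CR1+, CD8+CX3CR1-, CD4+ and DN arrays. Nearest to Cxcl16 were Havcr2, which encodes TIM-3 (0.13), Rmi1 (0.13) and the syndecan gene Sdc3 (0.14). Nearest to Ccl9 were the transcription factor gene Stat4 (0.08), the phosphatase gene Ptpro (0.09) and the Src-family kinase gene Fgr (0.13), with Fgr at 3372, 211, 3193 and 2787. Nearest to Cxcl1 were Gtpbp2 (0.18), Zfp219 (0.20) and Slc39a13 (0.24), by the probe set that the others did not bear out. Within a distance of 0.5 lay 68 genes for Cxcl9, 367 for Cxcl16, 48 for Ccl9 and 176 for Cxcl1. With 4 arrays such likeness is shared by many genes.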

How the data were processed

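Total RNA of 4 sorted DC subsets was hybridised to 1 array each. The authors deposited intensity values (signal), 1 per probe set, from MAS5 as named in the submitters' processing notes, of a version that no source used here gives. MAS5 corrects for background and scales an array as a whole: the mean of each array after trimming 2% at each end was 150.0. Of 45101 probe sets, 64 are controls, 34945 have 1 gene symbol, 932 several and 9160 none, and those with 1 symbol were named. All 10 members matched RefSeq (GRCm38.p6) by Entrez identifier. No source used here names the build behind the array's annotation.

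Where a gene had several probe sets, the brightest (by mean log2 signal) stood for it. The floor was the 90th percentile of 127 probe sets of chemosensory receptor and keratin-associated genes, pooled over arrays. Values under it were raised to it. The CD8+CX3CR1+ array by itself gave 46.0, CD8+CX3CR1- 62.6, CD4+ 59.9 and DN 52.8. Groups came from the titles, and 6 pairs of arrays were compared without a test, in Python 3.11.15 with numpy 2.4.6 and pandas 2.3.3. The steps were tested on simulated data. Named were all members, up to 4 genes of each other list with the largest range past 4-fold, defining markers under the floor and, per member with a 4-fold range, the 3 genes most like it. Other genes were named for their role or order of arrays, after their values were seen. The members and lists were chosen with earlier results of these data known. Alternatives were 75th or 95th percentile, array-wise or no floor, quantile or median scaling, other uses of probe sets and 2-fold in place of 4-fold.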

Additional observations from a re-analysis of the deposited data

How the results depend on the processing

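The difference of Cxcl16 between the CD8+ arrays, and that of Cxcl9 between CD8+CX3CR1- and DN, stayed past 4-fold under all 9 alternatives, while those of Ccl9 and Cxcl1 rest on 1 probe set each. With the dimmest probe set of each gene, the members past 4-fold numbered 1 between the CD8+ arrays and 1 between CD8+CX3CR1- and DN, and 0 in the pairs CD8+CX3CR1+ and CD4+, CD8+CX3CR1- and CD4+, and CD4+ and DN. The members' medians were then 0, 0, -0.066 (CD8+CX3CR1+ against DN) and -0.10 (CD8+CX3CR1- against CD4+). With probe sets averaged, 1 member passed between CD8+CX3CR1- and DN and 0 passed between CD8+CX3CR1+ and CD4+ or between CD4+ and DN, with medians of -0.0085 between the CD8+ arrays and 0.0085 for CD8+CX3CR1- against DN. Without _x, _s and _a probe sets, 0 passed between CD8+CX3CR1+ and CD4+ or between CD4+ and DN, Cxcl1 turned to 0.18 in the former, and the medians were 0 between the CD8+ arrays, 0 for CD8+CX3CR1- against DN and -0.043 against CD4+.

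Without a floor, 6 members passed between the CD8+ arrays, 5 between CD8+CX3CR1- and CD4+ and 4 between CD8+CX3CR1- and DN, with medians of -1.02 in the first and 0.96 in the last. With the floor at the 75th percentile 4 passed between CD8+CX3CR1- and CD4+, and with it at the 95th the median there was -0.41 and 0 passed in the 2 pairs that Cxcl1 had passed. The same 0 came in these pairs from scaling to an equal median. Counting at 2-fold gave 5 between the CD8+ arrays, 3 for CD8+CX3CR1+ against CD4+, 2 against DN, 5 for CD8+CX3CR1- against CD4+ and 8 against DN. Medians were taken as moved when they shifted by more than the median standard deviation between probe sets of a gene (0.29 to 0.39). Causes not shown by the setting itself were not tested. The arrays' background limits Ccl3, Ccl4, Ccl17 and Ccl22. No paired analysis was possible because each group has 1 array.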

Other observations

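Chemoattractants outside the chemokine family, chosen after the values of the chemokines were seen, were more even over the arrays. The gene of the macrophage migration inhibitory factor, Mif, read 2069 on CD8+CX3CR1+, 2764 on CD8+CX3CR1-, 1963 on CD4+ and 2159 on DN, a range of 1.41-fold. Cklf, which encodes chemokine-like factor, ranged over 1.18-fold (1976 to 2322), and Il16, whose product attracts CD4 cells, over 1.79-fold (1011 to 1812). Cmtm3, Cmtm6 and Cmtm7, of the family of Cklf, ranged over 1.47-fold, 1.33-fold and 2.35-fold, and Cmtm7 was highest on CD8+CX3CR1-, at 804 against 342 to 506 on the others. Rarres2, the gene of chemerin, was under the floor on all 4 arrays.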
